A study of Mus musculus with 4 samples.

Results

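The type 17 cytokine programme was followed through 8 genes that were listed by symbol and not by their values: Il17a, Il17f, Il22, Il23r, Il1r1, Ccr6, Cd163l1 and Il17re. All 8 were found, each as 1 of the 32285 genes of the count matrices. The study made droplet single-cell RNA libraries (10x Genomics) from liver tissue of male mice, 24 weeks old, kept for 12 weeks on a NASH diet, which causes steatohepatitis. The 2 Control and the 2 Cyr61 KO libraries share the strain Cyr61fl/fl, in which the gene of the secreted matrix protein CYR61 is flanked by recombination sites. Tissue had been stored in serum with 10% DMSO, and after thawing and digestion dead cells were depleted on a column. No label names a Cre driver or the cells in which the gene was deleted, and none says that each library came from a separate animal, so every p-value measures only the spread between these libraries. The comparison asked in which lymphocytes the programme was carried and whether it differed between KO and Control.

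Type 17 cells are lymphocytes that secrete interleukin 17 at barrier surfaces and in inflamed tissue, where it makes stromal and epithelial cells call in neutrophils. They comprise helper CD4 T cells, which acquire the programme after priming, and gamma-delta T cells, which leave the thymus already committed to it. In mouse liver, gamma-delta T cells are known as the main resident source of interleukin 17, and interleukin 1 and interleukin 23 drive its release.

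The libraries held between 4852 and 7253 barcodes, with totals of 8290677 to 20537236 UMIs (unique molecular identifiers, each a captured transcript). UMIs of the targeted gene, listed as Ccn1, numbered 184 in Control 1, 149 in Control 2, 0 in KO 1 and 12 in KO 2 over all barcodes. In the lymphoid cells it had 1, 0, 0 and 1 UMIs, so its deletion could not be checked there. The kept cells that carried it numbered 65, 28, 0 and 2. Stromal cells (mesothelial or fibroblast-like) numbered 314, 66, 1 and 2 in Control 1, Control 2, KO 1 and KO 2. Whether the lower KO totals come from deletion or from fewer such cells was not tested. A sequence barcode occurred in more than 1 library 74 times, and 4 of the cells named gamma-delta T-like carried such a barcode. Cells were clustered without the 8 genes and classes were named "X-like" from markers. The gamma-delta T-like class comprised 357, 242, 102 and 76 cells in Control 1, Control 2, KO 1 and KO 2, 777 in all, with medians of 1073, 2283.5, 1952.5 and 2897 UMIs per cell. Trdc, the constant segment of the delta chain, had 531, 644, 141 and 194 UMIs in it, against 1, 8, 2 and 2 UMIs of Cd4. The CD4 T-like class comprised 289, 575, 544 and 392 cells, and all lymphoid classes together 2897, 5495, 6051 and 4535 cells. Control 1 had the lowest median depth in each of the 6 lymphoid classes whose levels are compared here.

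The start-site sequences of the 2 interleukin 17 genes are shown first, because these neighbouring genes carry the same letters at nearly the same distance from their RefSeq starts. Il17a and Il17f lie close together on chromosome 1 (20730905 to 20734496 on the plus strand and 20777146 to 20790617 on the minus strand, GRCm38, protein-coding). The 250 bases before the RefSeq start (GRCm38.p6) are chr1:20730655-20730904 on the plus strand and chr1:20784271-20784520 on the minus strand. The Il17f window lies inside the gene span given above, which ends at 20790617. The distance of its motif therefore holds for the RefSeq start and not for the end of that span. Both windows are printed 5′ to 3′ in the direction of transcription, with TATAAA, the core of a TATA box, in capitals.
Il17a: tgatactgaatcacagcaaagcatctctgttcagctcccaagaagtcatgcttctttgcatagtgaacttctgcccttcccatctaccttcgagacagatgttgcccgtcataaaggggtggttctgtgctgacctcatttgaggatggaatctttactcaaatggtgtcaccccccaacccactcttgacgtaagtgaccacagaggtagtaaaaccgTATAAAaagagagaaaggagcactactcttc
Il17f: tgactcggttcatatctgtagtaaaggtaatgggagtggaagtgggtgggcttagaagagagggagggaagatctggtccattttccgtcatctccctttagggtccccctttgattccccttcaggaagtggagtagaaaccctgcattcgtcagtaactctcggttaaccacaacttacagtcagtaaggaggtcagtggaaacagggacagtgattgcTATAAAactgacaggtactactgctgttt
The motif stood 26 to 31 bases before the start of Il17a and 24 to 29 bases before that of Il17f, and 165 to 170 bases before that of Il22, each on the gene's own strand. The windows of the other 5 members did not hold these letters on either strand. Of 32851 windows of the same length, 12.4% held the motif on either strand and 7.59% on the gene's own strand. These matches describe letters and not bound sites.

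The other members lie on chromosome 6 (Il23r, 67422932 to 67491855, minus strand), chromosome 10 (Il22, 118204942 to 118210047, plus strand), chromosome 1 (Il1r1, 40225080 to 40317257, plus strand), chromosome 17 (Ccr6, 8236043 to 8257141, plus strand), chromosome 7 (Cd163l1, 140218267 to 140231145, plus strand) and chromosome 6 (Il17re, 113458484 to 113470758, plus strand). All are protein-coding. Il1r1 overlaps the predicted gene Gm38070 on the same strand, so reads in the overlap cannot be assigned to one of them with certainty.

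For 4 of the 8 members, Il17a, Il17f, Il23r and Cd163l1, most UMIs lay in the gamma-delta T-like cells. Of the 591 Il17a UMIs in all kept cells, 519 (87.8%) were in that class, as were 58 of 65 Il17f UMIs (89.2%), 86.6% of the Il23r UMIs and 82.3% of the Cd163l1 UMIs. Ccr6, the receptor for the chemokine CCL20, differed, with 79.9% of its UMIs in B-like cells and 10.5% in gamma-delta T-like cells. Il1r1, the signalling receptor for interleukin 1, and Il17re, a receptor chain for interleukin 17C, were shared with stroma. Mesothelial or fibroblast-like cells held 49.6% of the Il1r1 UMIs and 34.9% of the Il17re UMIs, and gamma-delta T-like cells held 38.6% and 54.4%. Those stromal cells numbered 314, 66, 1 and 2 in Control 1, Control 2, KO 1 and KO 2, so their receptor levels could be measured in the Control libraries alone.

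Levels were compared between classes as CPM, the UMIs of the gene scaled to a fixed total for the class, as the mean ± SD over the 4 libraries. Il17a stood at 318 ± 159 CPM in gamma-delta T-like cells, above every library of the next class, CD4 T-like cells at 2.57 ± 1.92 CPM. The order below that (NK or ILC1-like, CD8 T-like, B-like, NKT-like) was within the spread between libraries. Il17f, which encodes the closest relative of interleukin 17A, had 34.8 ± 21.4 CPM in gamma-delta T-like cells and 0.384 ± 0.768 CPM in CD4 T-like cells. Il23r, the receptor chain specific to interleukin 23, had 96.6 ± 24.8 CPM, Il1r1 101 ± 46.5 CPM and Il17re 101 ± 20.7 CPM in the gamma-delta class, with no overlap with the class that followed in any of the 3. Cd163l1, which encodes the scavenger receptor SCART1 of gamma-delta T cells, had 415 ± 73.9 CPM there and 4.55 ± 1.62 CPM in CD8 T-like cells. For Ccr6 the gamma-delta T-like (66.4 ± 45.0 CPM) and B-like (45.9 ± 7.72 CPM) ranges overlapped, and both lay above CD4 T-like cells at 5.35 ± 3.97 CPM. Il22, which encodes a cytokine that acts on hepatocytes and epithelia, was near the detection limit. It had 13 UMIs in all, of which 6 were in gamma-delta T-like, 6 in CD4 T-like and 1 in NKT-like cells.

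**Figure D1:**
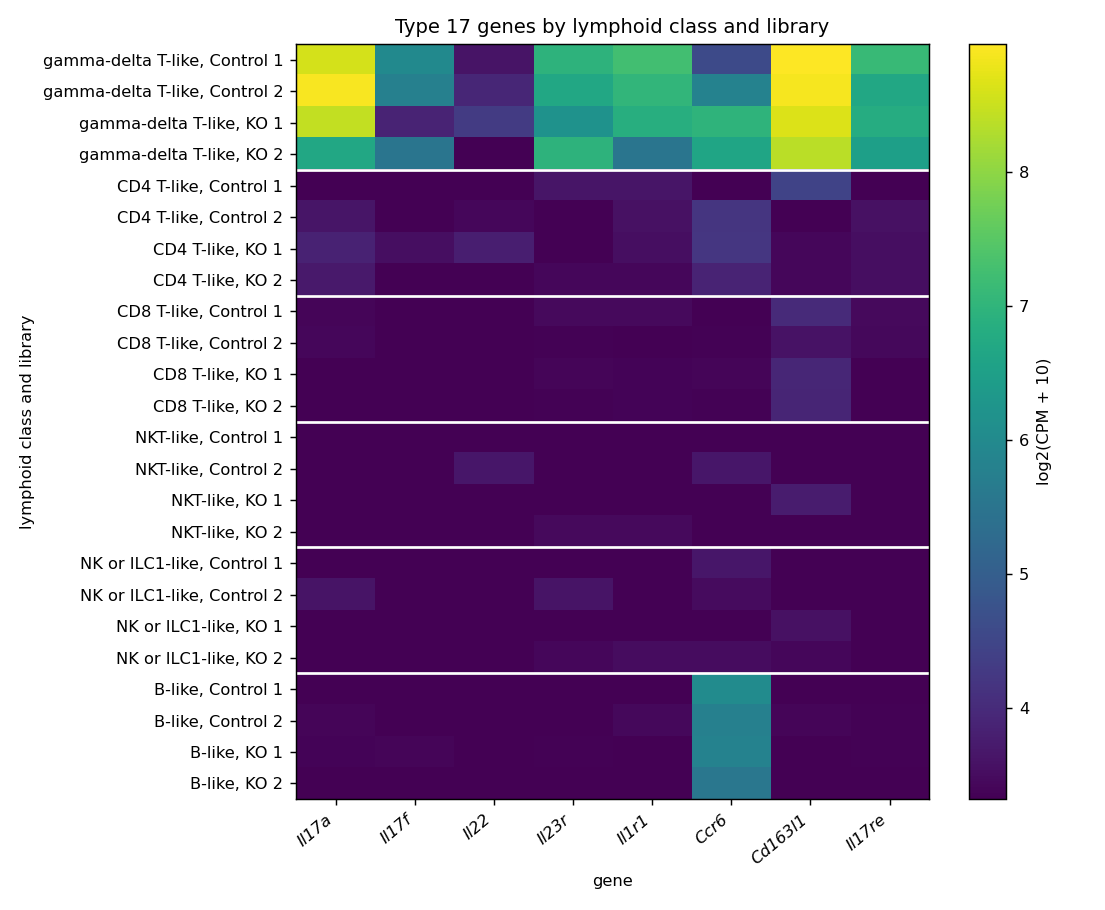
Level of each of the 8 genes, as log2(CPM + 10), in 6 lymphoid classes of each library. Columns are genes, lines are classes and libraries, and lighter colour is a higher level. The 4 gamma-delta T-like lines carry 7 of the genes, and Ccr6 is also seen in the B-like lines.

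Among the genes whose levels across these 24 points of class and library were most like the mean of the 8 members were Kcnk1 (Pearson r = 0.992), Sox13 (0.988), Coro2b (0.985), Abi3bp (0.980), Mmp25 (0.979), Slc6a13 (0.977), Cryba4 (0.977), Nr1d1 (0.976) and Prelid2 (0.968), out of 10470 genes with at least 100 UMIs in lymphoid cells. The points share 4 libraries and 6 classes, and the likeness mostly reflects presence in 1 class. Kcnk1, which encodes a potassium channel, stood at 79.7, 100.5, 62.8 and 79.8 CPM in the gamma-delta T-like cells of Control 1, Control 2, KO 1 and KO 2, and at most at 0.780 CPM in any other class and library.

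Transcripts of a member were found in few cells at a time. Of the 777 gamma-delta T-like cells, 520 (66.9%) had a UMI of at least 1 member, 242 (31.1%) of at least 2 and 82 (10.6%) of at least 3. An Il17a UMI was found in 101 cells, 44 of which (43.6%) also had a Cd163l1 UMI, against 35.4% of all cells of the class. Il17f was found in 24 cells, 10 of which also had Il17a. Cells with many Il17a UMIs were rare: in Control 1, Control 2, KO 1 and KO 2 the richest cell held 11, 68, 27 and 12 UMIs, which was 6.88%, 25.4%, 38.6% and 57.1% of the Il17a of its library's class. In the KO libraries the Il17a level therefore rested on a few cells.

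The share of gamma-delta T-like cells among lymphoid cells was 12.3% in Control 1, 4.40% in Control 2, 1.69% in KO 1 and 1.68% in KO 2. This class did not hold every cell with Trdc: of the cells that passed a gate on Trdc and CD3 chains, described further on, most of those in the KO libraries lay in CD8 T-like clusters, and the gate gave shares of 7.35%, 3.51%, 2.71% and 3.07%. Both KO libraries lay below both Control libraries, and the Control libraries differed from each other by more than Control 2 did from the KO libraries. The means were 8.36% ± 5.60 and 1.68% ± 0.00694 (SD, n = 2 libraries per group). In edgeR's quasi-likelihood test on cell numbers the log2 difference was -2.30 ± 0.59 (SE) with an adjusted p of 0.0567 over 8 classes, which misses the threshold of 0.05. The same difference passed without Control 1 (log2 -1.39, adjusted p = 0.0305) and without Control 2 (log2 -2.87, adjusted p = 0.00537), in edgeR each time. It did not pass without KO 1 (log2 -2.31, edgeR adjusted p = 0.264) or without KO 2 (log2 -2.30, edgeR adjusted p = 0.336). The exact two-sided permutation test cannot go below 0.333 with 2 libraries against 2. ILC2-like cells, the innate relatives of type 2 helper cells, also fell as a share, with 26, 35, 4 and 5 cells (log2 -3.10 ± 0.38, edgeR adjusted p = 0.0140), and held none of the members but for 1 Il1r1 UMI. With so few KO cells that call was lost without KO 1 (edgeR adjusted p = 0.103) and without KO 2 (edgeR adjusted p = 0.113).

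Over all lymphoid cells together, Il17a, Cd163l1 and Il1r1 fell in the KO libraries. Il17a stood at 39.8, 19.8, 5.74 and 1.69 CPM in Control 1, Control 2, KO 1 and KO 2, from 161, 281, 78 and 25 UMIs. The sum leaves out the cycling cells, whose Il17a UMIs are given further on. The groups did not overlap, and the log2 difference was -2.99 ± 0.44 (SE; edgeR adjusted p = 0.0210). Cd163l1 stood at 55.1, 20.3, 8.54 and 7.25 CPM (log2 -2.19 ± 0.37, edgeR adjusted p = 0.0293). Il1r1 stood at 16.5, 5.44, 1.91 and 1.02 CPM (log2 -2.79 ± 0.52, edgeR adjusted p = 0.0422). Control 1 was the highest library for each of the 3. The Il1r1 call was lost at no more than 10% mitochondrial UMIs (log2 -2.21, edgeR adjusted p = 0.0681) and in cells of 1000 UMIs or more (log2 -2.01, edgeR adjusted p = 0.0511). These were 3 of the 7 members tested, where 0.694% of the 12539 genes tested passed as lower and 0.479% as higher.

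Il17re, Il17f and Il23r had differences of like size that missed the threshold. Il17re stood at 14.1, 4.66, 1.77 and 1.36 CPM in Control 1, Control 2, KO 1 and KO 2 (log2 -2.46 ± 0.49, edgeR adjusted p = 0.0502). Il17f stood at 5.68, 1.91, 0.442 and 0.542 CPM, from 23, 27, 6 and 8 UMIs (log2 -2.77 ± 0.61, edgeR adjusted p = 0.0646). Il23r stood at 13.1, 4.09, 1.25 and 2.10 CPM (log2 -2.21 ± 0.52, edgeR adjusted p = 0.0809). In these 3, too, both KO libraries were below both Control libraries, as in 6 of the 7 members tested, where 17.2% of all genes tested had that order. Ccr6, carried mostly by B-like cells, stood at 12.1, 14.8, 19.3 and 12.7 CPM, with overlapping groups (log2 0.14 ± 0.23, edgeR adjusted p = 0.806). The median log2 difference of the 7 members was -2.46, beside 0.01 over all genes tested. Il22 had 1, 5, 7 and 0 UMIs and was not tested.

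**Figure D2:**
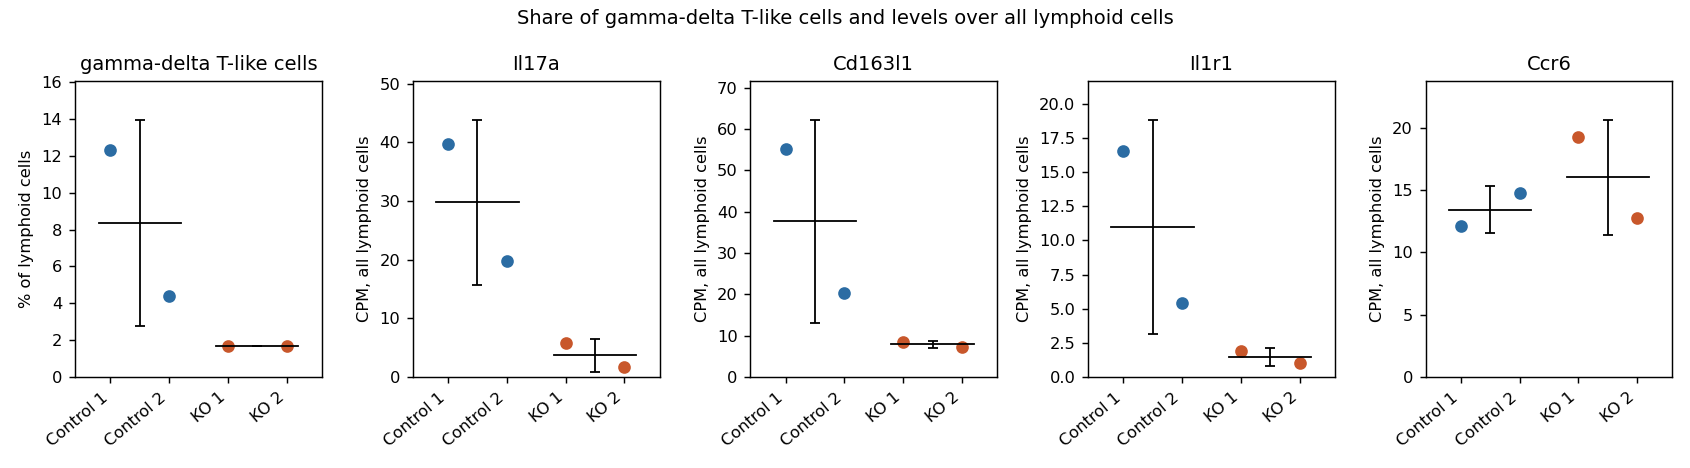
Left, percent of lymphoid cells that were gamma-delta T-like; the other plots give CPM over all lymphoid cells for Il17a, Cd163l1, Il1r1 and Ccr6. Points are libraries, lines and bars are the mean and SD of 2 libraries; the KO points lie below both Control points except for Ccr6.

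The level over all lymphoid cells combines the number of type 17 cells with the transcripts in each, and from that sum alone fewer cells and less RNA per cell cannot be told apart. Of the lymphoid Il17a UMIs, the gamma-delta T-like class held 99.4% and 95.4% in Control and 89.7% and 84.0% in KO. In the lymphoid cells outside that class Il17a stood at 0.276 and 0.957 CPM in Control and at 0.598 and 0.275 CPM in KO, with overlapping groups. The calls rested on the KO libraries: without KO 2 no member passed (Il17a log2 -2.34, edgeR adjusted p = 0.0929), and without KO 1 Il17a alone passed (log2 -4.11, edgeR adjusted p = 0.00164).

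Within the gamma-delta T-like cells no member passed the test. Of 4412 genes tested there, 0.0680% passed as lower and 0.0227% as higher, 4 genes in all: Cxcl2, Krt83 and AY036118 fell, and Klf2, a regulator of lymphocyte trafficking, rose. In simulated data of this class edgeR recovered 29% of genes changed 2-fold and 82% of those changed 4-fold, so moderate changes were poorly covered. The simulation gave every gene the same dispersion (0.0178) and changed genes of any level. Its rates therefore do not give the power for the members. Of the 7 members tested, 5 had an unadjusted edgeR p below 0.05, and DESeq2 called none of them. The share of all genes below that unadjusted p is not given, here or for the gene lists below, so such counts have no background to be read against. In CPM, 4 had both KO libraries below both Control libraries and 1 above, orders that 16.5% and 23.5% of all genes tested also had.

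Among the cytokine genes, Il17a had 160, 268, 70 and 21 UMIs in Control 1, Control 2, KO 1 and KO 2. Scaled to the class, the levels from Control 1 to KO 2 were 375, 464, 338 and 93.2 CPM, or 420 ± 63.2 against 216 ± 173 CPM (SD, n = 2). KO 1 lay just below Control 1 and KO 2 far below it, and the log2 difference was -1.04 ± 0.39 (edgeR adjusted p = 0.433). Leaving out the richest Il17a cell of each library gave 351, 349, 212 and 40.5 CPM. That cell held 38.6% and 57.1% of the UMIs in KO against 6.88% and 25.4% in Control. The step thus took a larger part from the KO libraries and could not test their order. Without KO 1 the difference was -2.25 and passed (edgeR adjusted p = 0.000198), and without KO 2 it was -0.38 (edgeR adjusted p = 0.830). Il17f had 23, 26, 1 and 8 UMIs, or 53.9, 45.0, 4.83 and 35.5 CPM (log2 -1.28 ± 0.55, edgeR adjusted p = 0.486), with KO 1 the low library. Its difference was -0.53 without KO 1 (edgeR adjusted p = 0.805) and -3.32 without KO 2 (edgeR adjusted p = 0.0498). The 2 KO libraries thus differed in which of the cytokine genes was lower. Il22 had 1, 3, 2 and 0 UMIs, too few for a test.

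The share of gamma-delta T-like cells with an Il17a UMI was 12.9% (exact 95% interval 9.59 to 16.8) in Control 1, 16.5% (12.1 to 21.8) in Control 2, 8.82% (4.11 to 16.1) in KO 1 and 7.89% (2.95 to 16.4) in KO 2. The intervals, which cover counting error only, overlapped between the groups. After thinning each cell to 1000 UMIs the shares were 10.4%, 11.2%, 7.23% and 2.94% of 202, 205, 83 and 68 cells deep enough (exact permutation p = 0.333, the smallest possible). In B-like cells, which should lack the gene, the shares were 0%, 0.115%, 0.0405% and 0%, at medians of 1063.5, 2058.5, 1695.5 and 2377 UMIs per cell.

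Of the receptors for the inducing cytokines, Il1r1 had 61, 70, 22 and 8 UMIs in Control 1, Control 2, KO 1 and KO 2, or 143, 121, 106 and 35.5 CPM (log2 -0.97 ± 0.37, edgeR adjusted p = 0.455). KO 2 was the low library, and the difference was -1.95 without KO 1 (edgeR adjusted p = 0.0332) and -0.36 without KO 2 (edgeR adjusted p = 0.865). Il23r had 49, 54, 13 and 26 UMIs, or 115, 93.6, 62.8 and 115 CPM, with overlapping groups (log2 -0.26 ± 0.31, edgeR adjusted p = 0.866). KO 2, the library lowest in Il17a and Il1r1, was level with Control 1 in Il23r. Il17re had 129, 93.6, 101 and 79.8 CPM, with overlapping groups (log2 -0.34 ± 0.29, edgeR adjusted p = 0.784). None of the cells with an Il1r1 or Il17re UMI held a UMI of any of the 8 mesothelial or fibroblast markers, the sum of which was 2, 1, 0 and 0 UMIs in this class.

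Cd163l1 had 207, 265, 82 and 72 UMIs, or 485, 459, 396 and 319 CPM, lower in both KO libraries (log2 -0.46 ± 0.20, edgeR adjusted p = 0.497). Ccr6 had the opposite order, with 6, 27, 24 and 20 UMIs, or 14.1 and 46.8 CPM in Control and 116 and 88.7 CPM in KO. Both KO libraries were above both Control libraries, and the log2 difference was 1.59 ± 0.45 (edgeR adjusted p = 0.288). Markers of B cells, which also carry Ccr6, moved with it: the 7 markers summed to 65.6, 107, 164 and 160 CPM in this class, and all 7 had a UMI (Cd79a had 2, 4, 4 and 2 UMIs). Without the cells that held a B marker UMI, Ccr6 stood at 15.6, 52.2, 101 and 76.8 CPM, from 6, 23, 15 and 11 UMIs. A cell without a detected marker UMI can still hold B cell RNA, so the part of B cells in the Ccr6 level was not tested. The difference passed in edgeR without Control 2 (2.78, adjusted p = 7.52e-05) and without KO 2 (1.76, adjusted p = 0.0127). It did not pass without Control 1 (1.02, edgeR adjusted p = 0.617) or without KO 1 (1.37, edgeR adjusted p = 0.314).

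**Figure D3:**
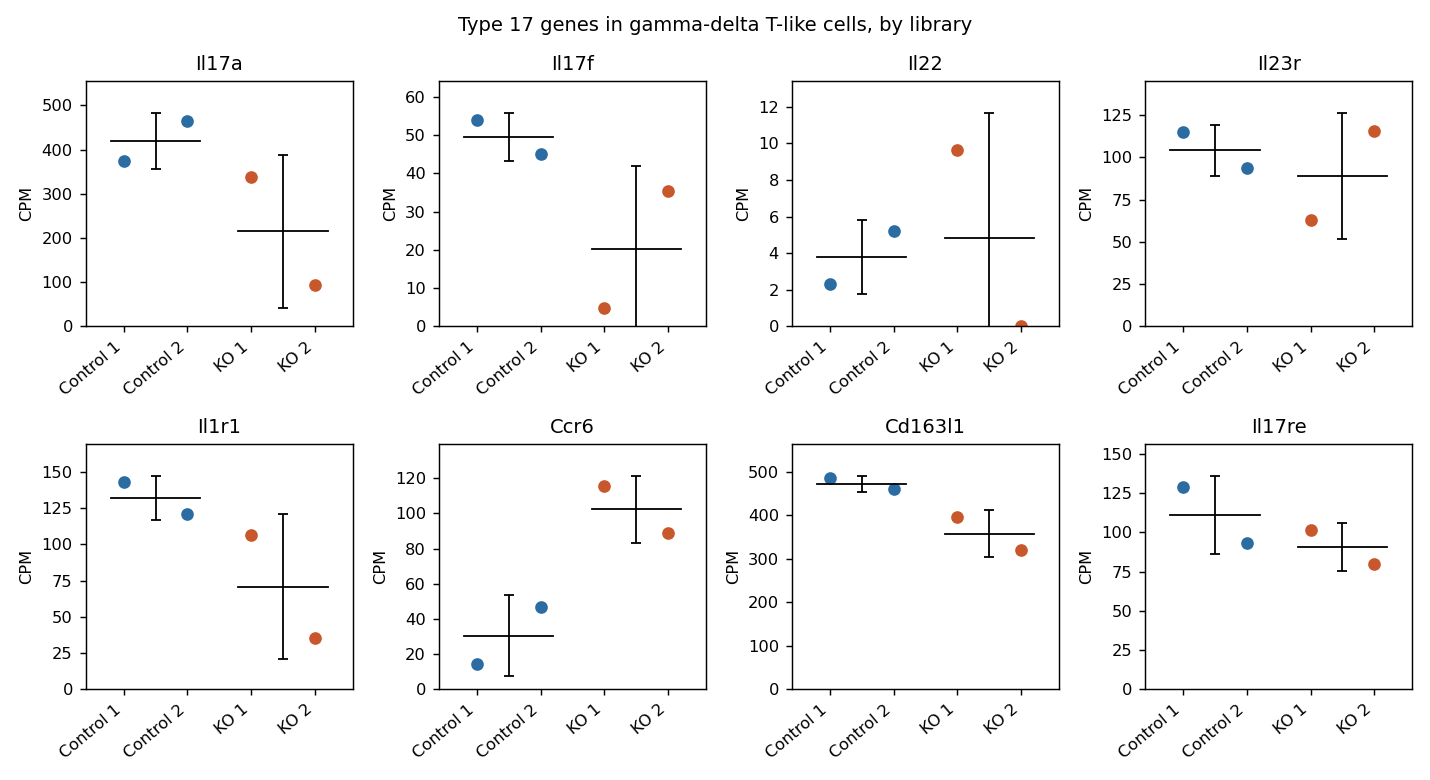
CPM of each of the 8 genes in gamma-delta T-like cells. Points are libraries (blue Control, orange KO), horizontal lines the mean and vertical bars the SD of 2 libraries, cut off at 0 for Il17f and Il22; Ccr6 is higher in both KO libraries, and Il23r, Il17re and Il22 overlap.

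The makeup of the gamma-delta T-like cells varied between the libraries. Trdv4, a variable segment of the delta chain, stood at 619, 421, 237 and 66.5 CPM (log2 -1.84 ± 0.39, edgeR adjusted p = 0.145). Tcrg-V6, a variable segment of the gamma chain, stood at 105, 58.9, 29.0 and 17.7 CPM (log2 -1.83 ± 0.47, edgeR adjusted p = 0.222). 5830411N06Rik, which encodes a scavenger receptor related to that of Cd163l1, stood at 143, 274, 396 and 479 CPM (log2 0.98 ± 0.29, edgeR adjusted p = 0.299). None of the 3, chosen after their values were seen, passed the test. In each the groups did not overlap. Of all genes tested in this class, 16.5% had both KO libraries below both Control libraries and 23.5% had both above.

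Cells with a Trdv4 UMI and cells with a 5830411N06Rik UMI were nearly separate, with 5 of 777 holding both. Those with Trdv4 alone made up 32.5%, 35.1%, 19.6% and 7.89% of the class in Control 1, Control 2, KO 1 and KO 2. For 5830411N06Rik alone the shares were 12.3%, 27.7%, 37.3% and 48.7%. The shares depend on depth, and Control 1 was the shallowest library. In each library Cd163l1 was higher in the Trdv4 cells: 873, 931, 848 and 2324 CPM against 55.7, 71.8, 51.7 and 134 CPM in the 5830411N06Rik cells, although KO 2 had only 6 of the former. Ccr6 had 1, 7, 4 and 1 UMIs in the Trdv4 cells against 1, 15, 12 and 13 in the 5830411N06Rik cells, too few to order the kinds in Control 1. In Control 2 and KO 1 these were 33.2 and 75.3 CPM against 89.8 and 155 CPM. Il17a stood at 469, 617, 245 and 0 CPM in the Trdv4 cells against 465, 437, 543 and 134 CPM in the 5830411N06Rik cells. Its UMIs in KO 1 came from 4 Trdv4 cells and from 3 cells with 5830411N06Rik. In KO 2 they came from 0 and 4 cells, too few to order the kinds in the KO libraries. These values describe cells that share a library, with no test between the kinds.

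**Figure D4:**
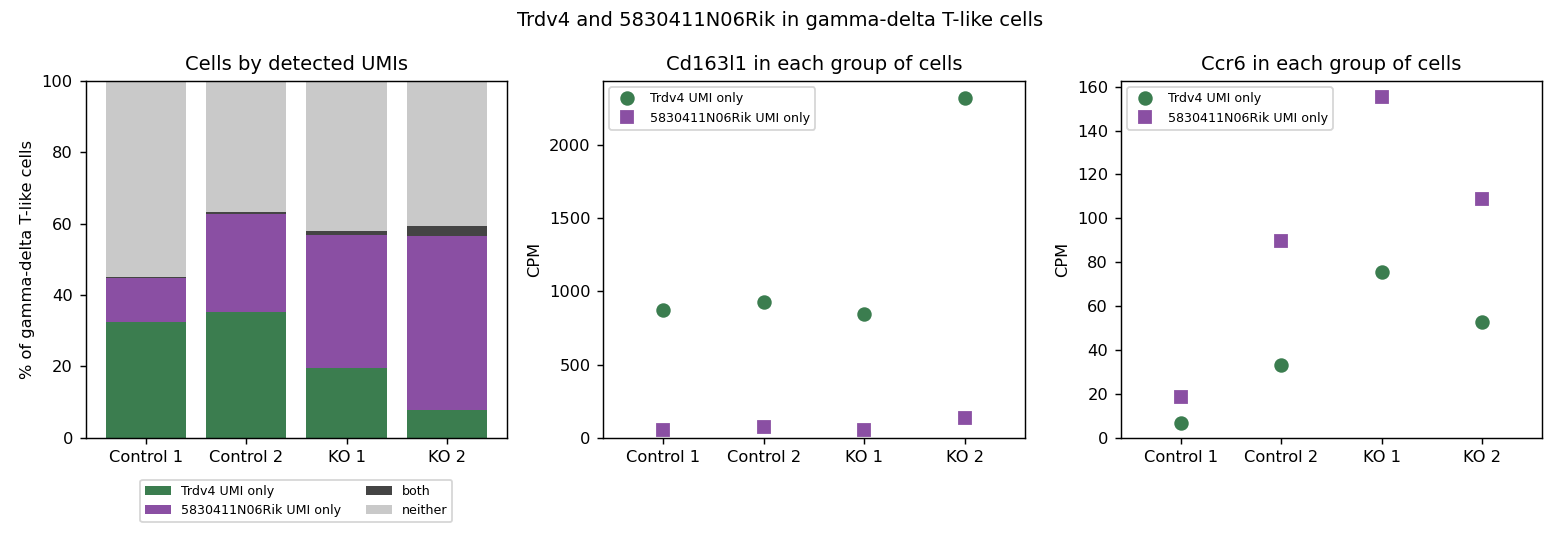
Left, percent of gamma-delta T-like cells with a UMI of Trdv4 only, 5830411N06Rik only, both or neither, per library. The other plots give CPM of Cd163l1 and Ccr6 in the first 2 groups; Cd163l1 is higher in the Trdv4 cells of each library, and Ccr6 rests on 1 UMI in each group of Control 1 and in the Trdv4 cells of KO 2.

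A definition of gamma-delta T cells by markers alone gave another picture. Cells with a UMI of Trdc and of a CD3 chain, and none of Cd4, Cd8a, Cd8b1, Ncr1, Cd79a and Lyz2, numbered 213, 193, 164 and 139, or 7.35%, 3.51%, 2.71% and 3.07% of lymphoid cells (log2 -0.90 ± 0.47, edgeR adjusted p = 0.490). Of these, 79.8% and 61.7% lay in the gamma-delta T-like cluster in Control but 31.7% and 26.6% in KO, and most of the others lay in CD8 T-like clusters. In the Trdc cells outside the cluster Il17a stood at 43.1, 8.32, 0 and 2.47 CPM, and Il17re at 0 in each library. Over all Trdc-gated cells 5 of the 7 members tested passed as lower in KO, where 1.37% of 5485 genes tested passed as lower and 1.09% as higher. Il17a stood at 306, 233, 125 and 30.6 CPM (log2 -1.77 ± 0.37, edgeR adjusted p = 0.0146) and Cd163l1 at 526, 363, 138 and 95.7 CPM (log2 -1.88 ± 0.24, edgeR adjusted p = 0.000437). Il1r1 (log2 -2.53), Il17re (-1.96) and Il23r (-1.76) also fell, at edgeR adjusted p of 0.00472, 0.0156 and 0.0456. Il17f (log2 -1.82 ± 0.61, edgeR adjusted p = 0.145) and Ccr6 (log2 0.11 ± 0.56, edgeR adjusted p = 0.966) did not pass there.

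In CD4 T-like cells the programme was scarcely detected. Il17a had 0, 4, 6 and 4 UMIs, in 0, 2, 3 and 3 cells, or 0%, 0.348%, 0.551% and 0.765% of the class. The count of 0 of 289 cells in Control 1, at a median of 1260 UMIs per cell, allows a share of cells with a UMI of up to 1.04% (3 cells), which does not limit the share that express the gene. Il17f had 2 UMIs, both in KO 1, and Il22 had 1 in Control 2 and 5 in KO 1. Of the 8 cells with Il17a, 3 had a Cd4 UMI and 2 a Trdc UMI. Only Ccr6, which marks helper cells that home to mucosa, had enough counts for a test: 0, 13, 11 and 6 UMIs, or 0, 8.27, 8.45 and 4.68 CPM, with no difference detectable (log2 0.02 ± 0.71, edgeR adjusted p = 0.997; 0.163% of the 7982 genes tested passed as lower and 0.0626% as higher). Cycling cells, which mix several lineages, held 42 Il17a UMIs in 6 cells, of which 4 had a Cd4 and 2 a Trdc UMI. Per library these were 2, 21, 4 and 15 UMIs.

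In B-like cells Ccr6 stood at 55.8, 44.5, 46.4 and 37.1 CPM, with overlapping groups (log2 -0.31, edgeR adjusted p = 0.523), where 0.515% of the genes tested passed as lower and 0.172% as higher. NK or ILC1-like and NKT-like cells together held 2 Il17a UMIs and no Il17f UMI. In CD8 T-like cells, a mixed class that includes shallow cells, Cd163l1 had 11, 15, 28 and 33 UMIs, or 5.82, 2.17, 5.11 and 5.09 CPM, the only member tested there (log2 0.62, edgeR adjusted p = 0.551), where 0.586% of the genes tested passed as lower and 0.418% as higher.

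None of the regulators of the programme passed the test inside the gamma-delta T-like cells. Of 16 transcription regulators 15 could be tested, of which 3 had an unadjusted edgeR p below 0.05, with a median log2 difference of -0.11. Maf, which type 17 gamma-delta cells need, stood at 872, 776, 879 and 701 CPM, and Rora, which encodes a nuclear receptor, at 314, 293, 285 and 532 CPM, with overlapping groups in both. Sox13 and Blk, which act early in this lineage, stood at 108, 104, 121 and 115 CPM and at 220, 244, 256 and 346 CPM. Of 18 other receptors of type 17 cells 11 were tested and none passed: Il7r, the survival receptor for interleukin 7, had 1012, 1060, 1183 and 1388 CPM, and Il18r1 had 757, 582, 734 and 665 CPM. All 18 genes listed as typical of interleukin 17 producing gamma-delta cells were tested and none passed, with a median of -0.27. Among them S100a4 had 2819, 3351, 4089 and 3802 CPM and Tmem176a 855, 1008, 806 and 692 CPM.

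Over all lymphoid cells, where the gamma-delta T-like share also differed, some genes of the same lists passed the test. Of the 12539 genes tested there, 0.694% passed as lower and 0.479% as higher. Of the 18 genes of interleukin 17 producing gamma-delta cells 8 fell and none rose, among them Trdv4 (log2 -2.92), Kcnk1 (-2.34) and Tmem176a (-1.66), at edgeR adjusted p of 0.0355, 0.0358 and 0.0188. Of the 17 other receptors tested 1 fell, the chemokine receptor Cxcr6 (log2 -0.92, edgeR adjusted p = 0.0195).

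Genes known to respond to interleukin 17 in stromal and myeloid cells were also measured in the lymphocytes. Of all genes tested, 0.694% passed as lower and 0.479% as higher over all lymphoid cells, and 0.163% and 0.0626% in CD4 T-like cells. Over all lymphoid cells 5 of 10 tested fell and none rose: Cxcl2 (log2 -3.44), S100a8 (-3.08), S100a9 (-2.90), Saa3 (-2.74) and Lcn2 (-3.58). Within gamma-delta T-like cells Cxcl2, a neutrophil-attracting chemokine, stood at 209, 244, 53.1 and 31.1 CPM (log2 -2.50 ± 0.32, edgeR adjusted p = 0.0230), and Cebpb, a transcription factor of this response, at 316, 272, 140 and 151 CPM (log2 -1.06 ± 0.22, edgeR adjusted p = 0.142). Nfkbiz, a cofactor of the response, stood at 218, 185, 164 and 155 CPM (log2 -0.38, edgeR adjusted p = 0.614). Zc3h12a, which encodes an RNase that restrains it, had the opposite order, at 42.2, 55.4, 77.2 and 106 CPM (log2 0.84, edgeR adjusted p = 0.455). In CD4 T-like cells S100a9, S100a8 and Cxcl2 fell by 2.65, 2.90 and 3.44 on the log2 scale (edgeR adjusted p of 0.0109, 0.0115 and 0.0115), 3 of 6 response genes tested.

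S100a8 and S100a9 are granule genes of neutrophils and are themselves among the 7 neutrophil markers, so the sum of the markers is not independent of them. Lcn2 was among the leading genes of the neutrophil-like cells. The 7 markers summed to 84.4, 185, 29.0 and 17.7 CPM in gamma-delta T-like cells, where 6 of 7 had a UMI and Ly6g was at 0, and to 133, 200.6, 45.2 and 25.1 CPM over all lymphoid cells. In CD4 T-like cells they summed to 90.5, 186, 51.5 and 21.1 CPM. Neutrophil-like cells numbered 102, 153, 70 and 56. Mesothelial or fibroblast markers summed to 13.1, 4.31, 0.221 and 0.136 CPM over all lymphoid cells. The part of neutrophil and stromal RNA in the lower response genes was not tested. Without the gamma-delta T-like cells that held a neutrophil marker UMI, Cxcl2 stood at 220, 218, 56.4 and 32.7 CPM and Il17a at 403, 527, 359 and 98.2 CPM, with both KO libraries below both Control libraries in each. In the whole class 16.5% of all genes tested had that order. A cell without a detected marker UMI can still hold neutrophil RNA, so this step cannot test its part.

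The cytokines that induce the programme could hardly be measured in lymphocytes. Of 10, only Tgfb1 was tested in gamma-delta T-like cells, with 124, 161, 159 and 160 CPM. Over all lymphoid cells 4 were tested and Il1b alone passed, with 3.95, 4.87, 1.18 and 1.29 CPM (log2 -1.94 ± 0.35, edgeR adjusted p = 0.0373). Of all genes tested there, 0.694% passed as lower and 0.479% as higher. Il1b was also among the leading genes of the neutrophil-like cells. Neutrophil markers summed to 133, 200.6, 45.2 and 25.1 CPM over all lymphoid cells. The part of neutrophil RNA in the Il1b level was not tested. Of the receptors for the type 17 cytokines, Il17ra, the shared chain for interleukin 17, rose over all lymphoid cells from 74.1 and 67.6 to 122 and 118 CPM (log2 0.70 ± 0.12, edgeR adjusted p = 0.0293). In the gamma-delta T-like and CD4 T-like classes it did not pass (log2 0.42 and 0.96, edgeR adjusted p = 0.672 and 0.111). In the gamma-delta T-like class both KO libraries were above both Control libraries, an order that 23.5% of all genes tested had. Il10rb, a chain of the interleukin 22 receptor, stood at 52.6, 53.1, 47.8 and 54.1 CPM over all lymphoid cells.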

How the data were processed

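Droplet single-cell RNA-seq of mouse liver was deposited as 1 matrix of raw UMI counts per library, made with Cell Ranger 3.1.0 on mm10, per the submitters' processing notes; the deposited counts were used as they stand. Kept barcodes had a minimum of 500 UMIs and 250 genes and no more than 25% mitochondrial UMIs. Doublets were marked with Scrublet (expected rate 0.06). In 3 libraries it marked under 0.5%, so the highest scores were removed at 0.8% per 1000 barcodes. In all 183, 411, 415 and 84 barcodes were removed from Control 1, Control 2, KO 1 and KO 2.

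Cells were clustered with scanpy 1.11.5 (Python 3.11.15) on 2000 variable genes, 30 principal components and 15 neighbours (Leiden resolution 1.0), without integration. The 8 members, their companion lists, mitochondrial and haemoglobin genes were left out of the clustering. Classes were named from marker lists, and gene levels in a class were tested where every library had at least 20 cells; cell numbers were tested in all 8 lymphoid classes. Counts were summed per library and class and compared with edgeR 4.0.16 (R 4.3.3; quasi-likelihood test, TMM scaling, filterByExpr, Benjamini-Hochberg adjusted p below 0.05 over all genes tested). Log2 differences are KO minus Control with their SE. Shares of cells were compared with the exact permutation test (scipy 1.17.1) after thinning to 1000 UMIs. The test was tried on simulated counts. Summed UMIs of the gamma-delta T-like class were 207155 to 577174 per library, so 3 UMIs correspond to 5.20 to 14.5 CPM. Gene positions are from GENCODE M21; start-site sequences are from RefSeq.

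Genes were named by rule: the 8 members, companion genes that passed in the gamma-delta or CD4 T-like class (up to 4 per list) with up to 2 of the highest level, and the 10 genes most like the members' mean. Genes named for lists over all lymphoid cells, Cebpb, Zc3h12a, and the scavenger receptor and receptor-segment genes were chosen after their values were seen. A gene that these rules name is not reported here. The members and lists were chosen with earlier results of these data known. Alternatives were DESeq2 1.42.0, other size factors, no filter on low counts, a replicate block, leaving out each library, other cell filters and clusterings, a Trdc marker gate, and, chosen after seeing the data, leaving out the cell richest in Il17a.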

Additional observations from a re-analysis of the deposited data

How the results depend on the processing

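In gamma-delta T-like cells the 0 members called became 2 without a filter on low counts, 5 with the Trdc marker gate and 0 to 2 when 1 library was left out. The 4 genes called there became 2 with DESeq2, 61 without the filter, 21 at no more than 10% mitochondrial UMIs, 8 at 1000 UMIs or more, 7 with the members kept in the clustering, 135 with the marker gate and 5 to 51 without 1 library. In CD4 T-like cells the 18 genes called became 2 with DESeq2, 77 without the filter, 127 at the lower mitochondrial limit, 186 at the higher UMI limit, 44 with doublets kept, 62 at resolution 2.0, 69 with the members kept and 13 to 132 without 1 library. Over all lymphoid cells the 3 members called became 6 with DESeq2 and without the filter, 2 at the lower mitochondrial and at the higher UMI limit, and 0 to 6 without 1 library, while the 147 genes called became 236 with DESeq2, 899 without the filter, 4 to 1303 without 1 library and 96 at the lower mitochondrial limit. The gamma-delta T-like share (log2 -2.30) passed the threshold at -2.41 with the lower mitochondrial limit, -2.15 with the higher UMI limit, -2.33 with doublets kept, -2.26 at resolution 2.0 and -2.25 with the members kept, and ranged from -2.87 to -1.39 without 1 library. It did not pass without KO 1 (-2.31), without KO 2 (-2.30) or with the marker gate (-0.90). The cause of these shifts was not tested.

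The replicate numbers pair the libraries by number only: deviations of same-numbered libraries correlated at r = -0.0026 in gamma-delta T-like, 0.18 in CD4 T-like and 0.13 in all lymphoid cells. With the replicate number as a block, 0, 232 and 340 genes were called in the 3, with 5 members called over all lymphoid cells, and the share difference was -2.14 (edgeR adjusted p = 0.00607).

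Differences that changed sign were all far from the threshold. Leaving out 1 library moved Il23r in gamma-delta T-like cells from -0.77 to 0.09 and Ccr6 from -0.41 to 5.75 in CD4 T-like cells (the highest with Control 1, at 0 UMIs, as the lone Control) and from -0.18 to 0.43 in all lymphoid cells. Without KO 1, Il23r was 0.0898, and Ccr6 was -0.38 in CD4 T-like and -0.18 in all lymphoid cells. Without Control 1, Ccr6 was -0.41 and -0.01 in those. Thinned to 500 UMIs, the difference in share of cells was -0.207 points for Il22 and 0.187 points for Il17re. With 2 libraries per group and 21 Il17a UMIs in KO 2, a change of 2-fold in a member could be missed in the gamma-delta T-like class.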

Other observations

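Genes of other helper programmes were measured in the same cells. In gamma-delta T-like cells none of 7 type 1, 2 type 2 and 4 regulatory or follicular helper genes tested passed in edgeR, with 3, 1 and 1 at an unadjusted p below 0.05. Ccl5, a chemokine of type 1 lymphocytes, stood at 295, 232, 261 and 182 CPM in Control 1, Control 2, KO 1 and KO 2, and Tnf at 300, 121, 169 and 177 CPM. The 3 type 1 genes at an unadjusted p below 0.05, chosen after their values were seen, were higher in both KO libraries: Ifng (log2 1.41), Klrk1 (1.10) and Ly6c2 (1.22), at edgeR adjusted p of 0.474, 0.254 and 0.468. In this class 23.5% of all genes tested had both KO libraries above both Control libraries. The median log2 difference of the 7 type 1 genes was 0.35. Gata3, the regulator of type 2 cells, stood at 143, 114, 86.9 and 173 CPM, and Areg, a tissue-repair factor, at 49.2, 31.2, 9.65 and 17.7 CPM (log2 -1.53, edgeR adjusted p = 0.428). Ikzf2 stood at 253, 289, 237 and 208 CPM.

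Over all lymphoid cells Gzma, a granule protease of cytotoxic lymphocytes, rose from 252 and 183 to 486 and 647 CPM (log2 1.33 ± 0.19, edgeR adjusted p = 0.0195), 1 of 12 type 1 genes tested. Of all genes tested there, 0.694% passed as lower and 0.479% as higher. Of 9 regulatory and follicular helper genes tested 2 fell. Ctla4, a checkpoint receptor of regulatory T cells, fell from 196 and 123 to 64.0 and 43.2 CPM (log2 -1.61, edgeR adjusted p = 0.0195). Il10, which encodes an anti-inflammatory cytokine, fell from 4.69 and 5.44 to 1.10 and 0.746 CPM (log2 -2.55, edgeR adjusted p = 0.0204). Of 7 type 2 genes tested 1 fell, Il1rl1, the receptor for interleukin 33, at 14.8, 7.48, 1.99 and 3.39 CPM (log2 -1.98, edgeR adjusted p = 0.0381), beside the smaller ILC2-like share.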
